A study of Homo sapiens with 4 samples.

Results

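EPCAM and 8 further genes used as markers of liver tumour-initiating or progenitor-like cells were examined on 4 arrays of the human hepatocellular carcinoma line HCCLM3. The genes were EPCAM, CD24, CD44, PROM1, KRT19, SOX9, AFP, GPC3 and DLK1, and every probe set that carries the symbol of one of them was taken: 30 of 54613 probe sets and 9 of 19775 genes. All 4 samples were HCCLM3 cells that had been sorted magnetically by surface EpCAM and then treated for 4 days. EpCAM-negative cells were transfected with a negative-control (NC) mimic or with a mimic of miR-429, which is a double-stranded RNA made to act as that microRNA, each at 100 nM. EpCAM-positive cells received a cholesterol-conjugated NC antagomir or antagomir-429, an antisense RNA against miR-429, each at 40 µM. Each group was 1 array, so no difference below has a replicate check, and no p-value or standard error is given. The EpCAM-positive and EpCAM-negative controls also differed in reagent and delivery, so sort and reagent cannot be told apart in that comparison.

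EPCAM encodes an epithelial adhesion molecule that can be cleaved to release an intracellular fragment that signals to the nucleus, and its surface protein is used to enrich tumour-initiating cells from liver cancers. CD24 (a small mucin-like glycoprotein), CD44 (the hyaluronan receptor) and PROM1 (CD133) are surface markers used for the same purpose. KRT19 and SOX9 mark bile duct and hepatic progenitor cells, and AFP, GPC3 and DLK1 are fetal liver genes that many liver cancers express again. The miR-200 family, of which miR-429 is a member, holds cells in an epithelial state, chiefly by repressing ZEB1 and ZEB2. According to its title, the series set out to find targets of miR-429.

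The mature sequences are shown because the seed, bases 2 to 8, largely decides which mRNAs a microRNA can bind. The mimic was made as a copy of a single member of this family, and the antagomir was made against that member. The sequences are from RefSeq (GRCh38.p14), with the seed in capitals.
hsa-miR-429: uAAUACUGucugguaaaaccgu
hsa-miR-200b-3p: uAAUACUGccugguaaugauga
hsa-miR-200c-3p: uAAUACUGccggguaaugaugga
hsa-miR-200a-3p: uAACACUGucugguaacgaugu
hsa-miR-141-3p: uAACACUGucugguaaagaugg
The first 3 share the seed of miR-429, and the other 2 differ from it at 1 seed base (U4C, counted from the 5′ end). A mimic of miR-429 therefore supplies the seed that miR-200b and miR-200c also carry. Levels of the microRNAs themselves were not analysed here.

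The values are MAS5 signals, which the authors had scaled to a common trimmed mean of 500.1 on each array. A gene is represented by its brightest probe set, and it counts as expressed when the mean log2 signal over the 4 arrays is at or above the median of all probe sets, a signal of 52.9, called the floor here. Of the 19775 genes, 13180 were expressed. The log2 ratios of the marker genes are set beside the robust SD of the log2 ratios of genes of like signal, in 20 equal bins of 659 genes. This SD is a spread across genes within 1 pair of arrays. It also holds differences due to treatment, and it does not measure the spread between replicates. The actin 3′ to 5′ signal ratio was 3.41 with the NC mimic, 2.63 with miR-429 mimic, 3.12 with NC antagomir and 3.07 with antagomir-429. The GAPDH ratio ran from 0.90 to 0.92. Mean log2 signals of the poly-A spike controls were 12.17, 11.35, 11.74 and 11.82 on these arrays in that order. Those of the hybridisation controls were 12.96, 12.59, 12.78 and 12.82. The miR-429 mimic array was thus lowest for the actin ratio and both controls. The part of this in the results below was not tested.

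Of the 9 marker genes, 6 were expressed: EPCAM, CD24, CD44, SOX9, AFP and DLK1. The first 4 also lay above the 75th percentile of all probe sets, a signal of 265.6. AFP and DLK1 were just inside the floor, with mean signals of 100.5 and 93.7. GPC3 and PROM1 were just outside it, with mean signals of 34.0 and 31.5, and KRT19 lay far under it at 7.9. The surface markers CD24 and CD44 and the progenitor factor SOX9 thus lay well above the floor, whereas the fetal liver genes were at or near the background of the array.

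The liver cancer line named in the label was set beside 10 plasma protein genes of hepatocytes. Only APOA1, APOA2 and AHSG were expressed, with signals of at most 176 on any array, and ALB was under the floor on all 4 arrays with signals from 4.0 to 51. By the mean over the 4 arrays, 7 of these 10 liver genes were thus under the floor. On single arrays, 4 of the 10 were at or above it with the NC mimic and 6 with the miR-429 mimic. With the NC antagomir 5 were, and with antagomir-429 7 were. The highest signal of any of the 10 was 176, so the arrays give little sign of hepatocyte plasma protein genes. The origin of the cells was not tested. Bright keratins marked the cells as epithelial: the simple-epithelium keratin KRT18 had signals from 42723 to 50499 and the duct-type keratin KRT7 from 15025 to 17438. Duct genes were not bright throughout, and the duct keratin KRT19 had at most 12.4 on any array. In the biliary and progenitor list below, 12 of 16 measured genes were expressed. Of the 4 that were not, SPP1, ONECUT1 and CFTR were under the floor on every array. Of 14 measured leukocyte, endothelial and stromal markers, 9 were expressed. The leukocyte gene PTPRC, the monocyte gene CD14 and the endothelial receptor KDR were under the floor on all 4 arrays. The endothelial adhesion molecule PECAM1 had signals from 126 to 234 and the T cell gene CD3E from 54.8 to 136, at or above the floor on all 4 arrays. The summed signal of the 14 ran from 8558 on the NC mimic array to 11976 on the NC antagomir array, most of it from the collagen gene COL1A1 (7162 and 10500). The part of other cells in the results below was not tested.

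**Figure D1:**
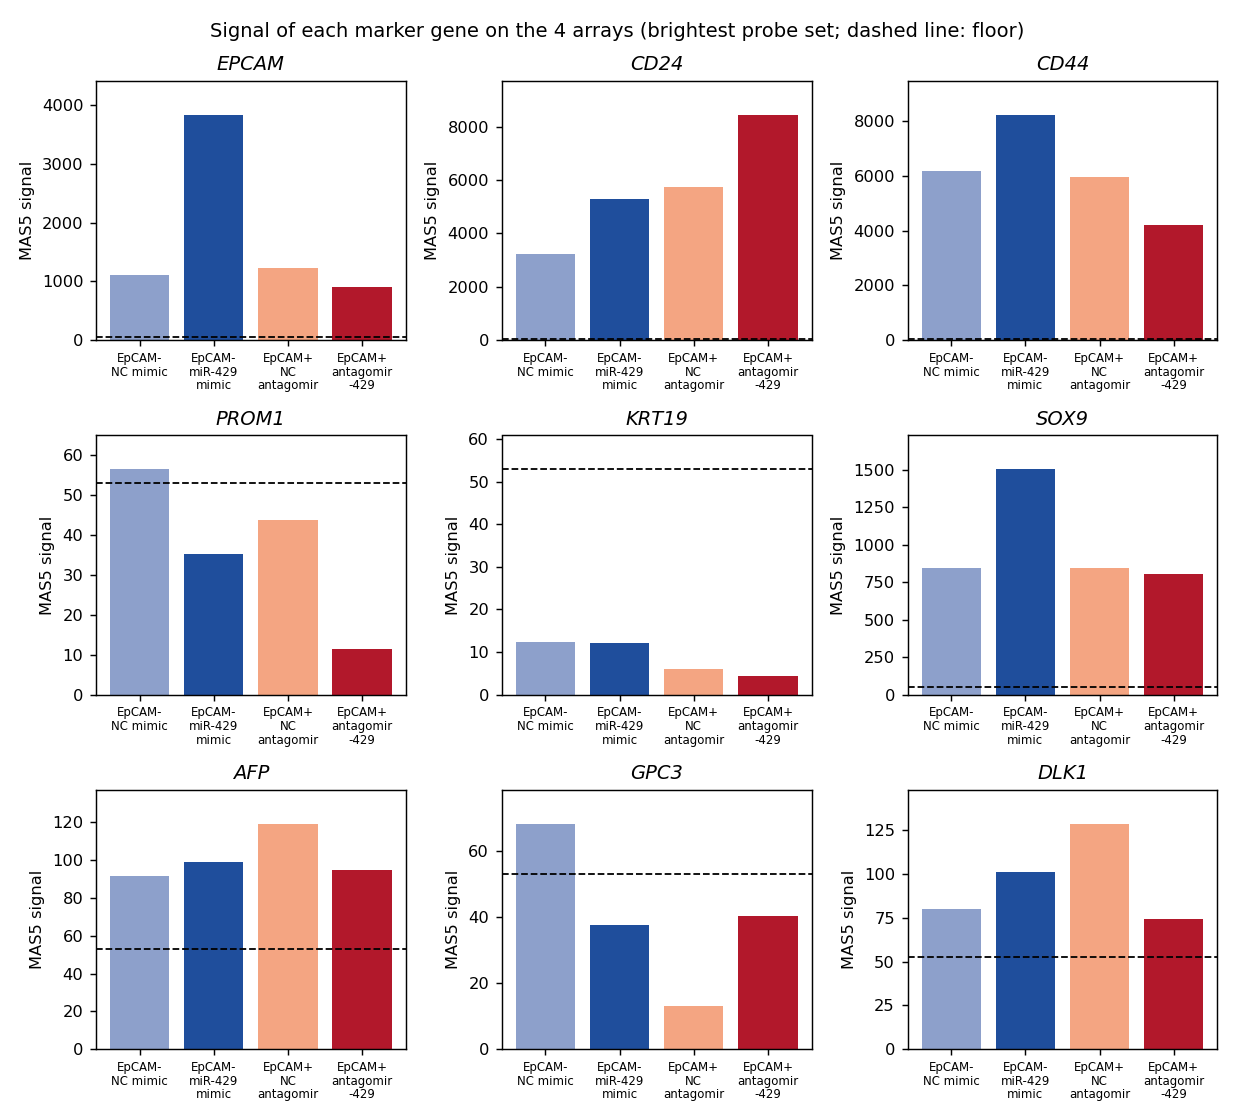
MAS5 signal (vertical axis, linear from 0, own scale in each panel) of the brightest probe set of each of the 9 marker genes on the 4 arrays, 1 bar per array, with the floor of 52.9 as a dashed line. EPCAM and SOX9 each have a single high bar, that of the miR-429 mimic array, CD24 is highest with antagomir-429, and KRT19 lies under the floor throughout.

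EPCAM had 1 probe set, 201839_s_at, so its values have no second probe set beside them. Its signal was 1106 with the NC mimic, 3838 with the miR-429 mimic, 1235 with the NC antagomir and 913 with antagomir-429. The miR-429 mimic array thus stood alone, and the other 3 arrays lay close together whatever their EpCAM sort. Its mimic log2 ratio was 1.80, or 3.47-fold, beside a robust SD of 0.39 among genes of like signal. It was the 162nd highest among all 13180 expressed genes, and the 4th highest among the 8130 genes past the 75th percentile. Against the EpCAM-positive NC antagomir array the miR-429 mimic array was 3.11-fold higher. In bulk RNA, more cells that express a gene and more RNA per cell cannot be told apart.

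With antagomir-429 the EPCAM signal was lower than with the NC antagomir, by a log2 ratio of -0.44 beside a like-signal SD of 0.22. Between the control arrays of the opposite sorts, EPCAM was 1.12-fold higher in the EpCAM-positive cells (log2 ratio 0.16), which is less than the SD of 0.32 among genes of like signal. In order of signal, the 3 lower arrays were therefore the EpCAM-positive control, the EpCAM-negative control and antagomir-429. The first gap in that order, 0.16, was inside the like-signal scatter. The gap of 0.28 from the EpCAM-negative control to antagomir-429 crosses sort and reagent. The sort acted on surface protein, and the mRNA was read after 4 days of treatment.

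In the mimic comparison 5.25% of expressed genes were higher by 2-fold or more and 3.76% were lower by as much. EPCAM was the only marker gene past 2-fold, as 1 of 6 expressed. All 6 had a log2 ratio above 0, with a median of 0.56, where 49.9% of all expressed genes were above 0 and their median was 0.00. In the antagomir comparison these shares were 3.72% higher and 3.53% lower, and 0 of the 6 marker genes were past 2-fold. There, 1 of the 6 was above 0 and 5 were below, with a median of -0.39 beside 0.01 for all expressed genes, 51.0% of which were above 0. Between the control arrays 3.62% of expressed genes were higher and 4.7% lower by 2-fold or more in the EpCAM-positive cells, and 0 of the 6 were. There, 4 were above 0 and 2 below, with a median of 0.27 beside -0.02 for all expressed genes, 47.8% of which were above 0. The 3 marker genes under the floor are not in these counts.

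**Figure D2:**
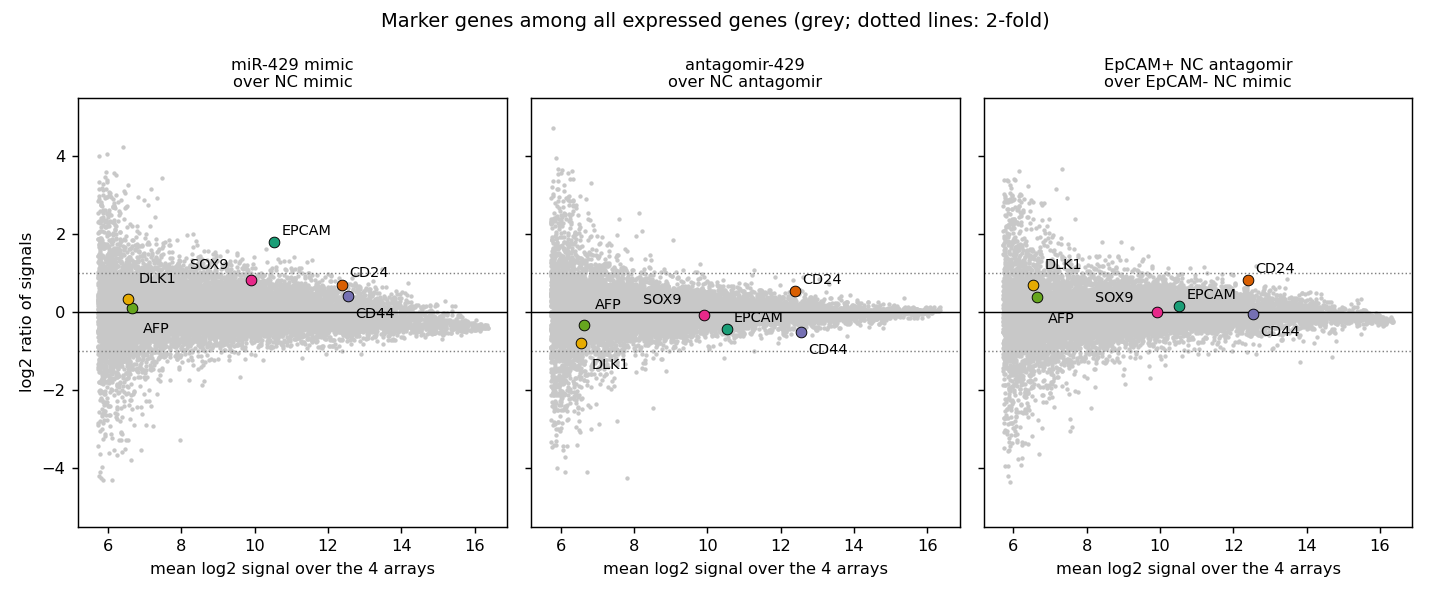
Log2 ratio of signals (vertical axis) against the mean log2 signal over the 4 arrays (horizontal axis) for all expressed genes in grey and the 6 expressed marker genes in colour, 1 panel per comparison, with dotted lines at 2-fold. EPCAM lies above the grey cloud of like signal with the miR-429 mimic (1.80) and inside it between the control arrays (0.16).

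CD24 had signals of 3232 with the NC mimic, 5289 with the miR-429 mimic, 5745 with the NC antagomir and 8439 with antagomir-429 by its brightest probe set. It was lowest on the EpCAM-negative control array and highest on the antagomir-429 array, so each treated array was higher than its own control. The log2 ratios were 0.71 with the mimic (like-signal SD 0.38) and 0.55 with antagomir-429 (SD 0.15). The ratio of the EpCAM-positive over the EpCAM-negative control was 0.83 (SD 0.27), and 0.52 as the median over probe sets. All 6 CD24 probe sets were above 0 in all 3 comparisons.

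The CD24 probe sets nevertheless fell apart in the comparison of the controls. Probe sets 209771_x_at, 216379_x_at and 266_s_at had log2 ratios from 0.83 to 1.08 there, whereas 208650_s_at, 208651_x_at and 209772_s_at had 0.02 to 0.21. The same split appeared less sharply with the mimic, at 0.71 to 0.94 and 0.11 to 0.60. With antagomir-429 both sets overlapped, at 0.42 to 0.55 and 0.21 to 0.65. The highest, 266_s_at, was the only marker probe set past the floor that was 2-fold apart between the controls, with 1475 in EpCAM-negative and 3118 in EpCAM-positive cells. In that comparison 5.08% of probe sets past the floor were at least 2-fold higher and 5.69% lower. By Affymetrix naming, the letters x and s mark probe sets whose probes can match more than 1 transcript, so CD24 signals can include related sequences. The limit is not particular to CD24. The only EPCAM probe set, both SOX9 probe sets and the brightest of CD44 and DLK1 also carry the letter s.

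CD44 had 13 probe sets, 8 of them past the floor. Its brightest gave signals of 6168 with the NC mimic, 8237 with the miR-429 mimic, 5969 with the NC antagomir and 4195 with antagomir-429. The control arrays were alike, and the treated arrays lay on opposite sides of them. With the mimic the log2 ratio was 0.42 (like-signal SD 0.35), and 7 of the 8 probe sets were above 0, in a range from -0.02 to 0.89. With antagomir-429 all 8 were below 0, from -0.51 to -0.04. The brightest probe set had the most negative value there, beside a like-signal SD of 0.13, and the median over the 8 was -0.15, so the size depended on the probe set.

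Between the control arrays 7 CD44 probe sets were lower in the EpCAM-positive cells, with log2 ratios from -0.41 to -0.05. Probe set 212063_at went the other way, with 3421 in EpCAM-negative and 5055 in EpCAM-positive control cells (0.56), and it also had the highest mimic ratio, 0.89, at 6343. CD44 is an alternatively spliced gene, and which transcripts each probe set reads was not analysed here. The 5 CD44 probe sets under the floor had mean signals from 5.6 to 28.6, and values this low have no order.

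SOX9, a transcription factor of duct and progenitor cells, had signals of 846 with the NC mimic, 1503 with the miR-429 mimic, 844 with the NC antagomir and 803 with antagomir-429. As for EPCAM, the miR-429 mimic array was the high one, and the gaps between the other 3, in order of signal, were 0.00 and 0.07 log2 units. The mimic ratio was 0.83 by the brighter probe set (like-signal SD 0.43) and 0.93 by the dimmer, whose signals were 514 and 982. With antagomir-429 the ratios were -0.07 (SD 0.26) and -0.20, and between the controls 0.00 (SD 0.36) and 0.10. Neither probe set reached 2-fold in any comparison.

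**Figure D3:**
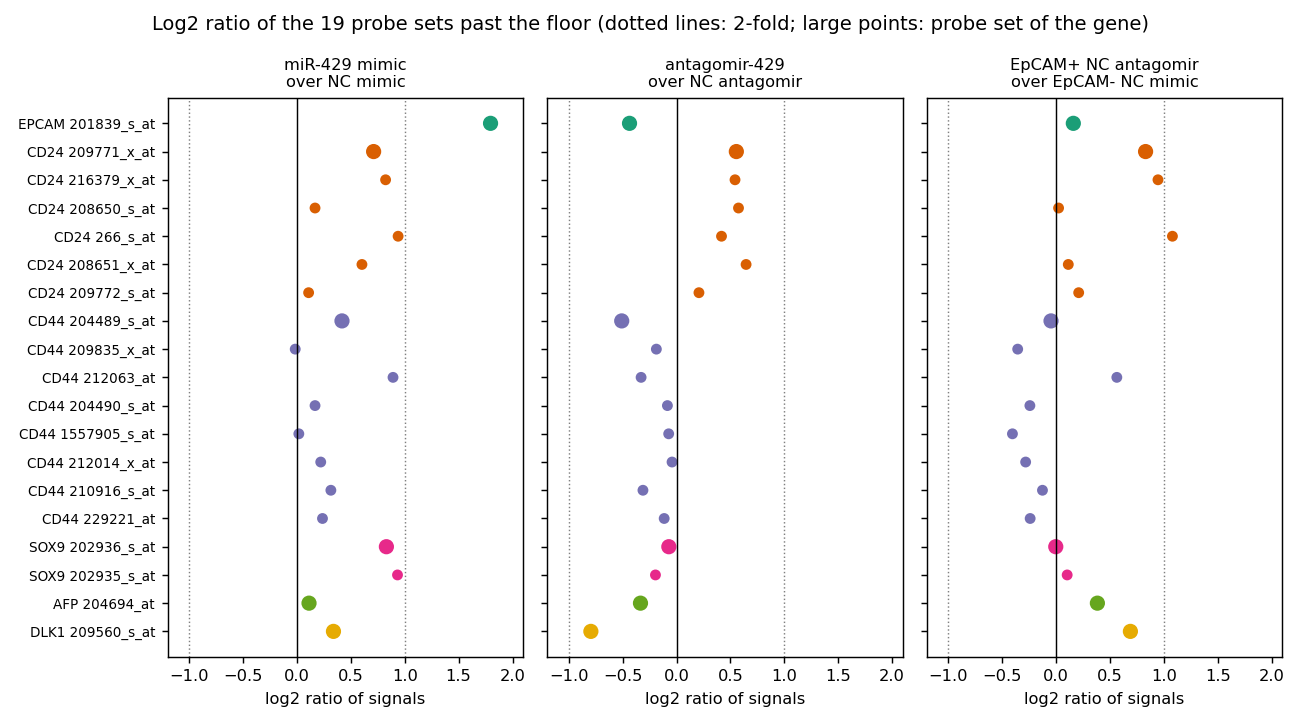
Log2 ratio of signals (horizontal axis) of the 19 marker probe sets past the floor (rows), 1 panel per comparison, with the probe set that represents its gene as a large point and dotted lines at 2-fold. The 6 CD24 probe sets are above 0 in every panel, the 8 of CD44 are below 0 with antagomir-429, and EPCAM with the mimic (1.80) is the farthest point from 0.

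Among the fetal liver genes, AFP, the albumin-like serum protein of the fetal liver, had 91.5 with the NC mimic, 98.8 with the miR-429 mimic, 119 with the NC antagomir and 94.6 with antagomir-429. Its log2 ratios of 0.11, -0.33 and 0.38 in the mimic, antagomir and control comparisons were smaller than the like-signal SDs of 0.75, 0.67 and 0.72. DLK1, a Delta-like membrane protein of hepatoblasts, had 79.9, 101, 129 and 74.2 on the same arrays in that order. Its antagomir ratio of -0.79 was the most negative of any expressed marker gene, beside an SD of 0.67, and the mimic and control ratios were 0.34 and 0.69. The dimmer DLK1 probe set had signals from 7.6 to 14.4, under the floor on all 4 arrays, so no direction is given for it. Both genes were highest on the EpCAM-positive control array, but at signals where genes of like brightness scatter as widely.

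The remaining 3 genes were at or under the floor. PROM1 had 56.3 with the NC mimic, 35.2 with the miR-429 mimic, 43.6 with the NC antagomir and 11.4 with antagomir-429. GPC3, a heparan sulfate proteoglycan, had 68.3, 37.5, 13.0 and 40.3 on these arrays by its brighter probe set. The dimmer GPC3 probe set put 55.9 on the antagomir-429 array and 5.0 on the NC antagomir array. Each of PROM1 and GPC3 was above the floor on a single array per probe set, so no direction is given for them. KRT19, a keratin of bile duct cells, had signals from 4.3 to 12.4 by its brighter probe set and from 2.8 to 5.6 by the other, under the floor on all 4 arrays.

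Of the 6 expressed marker genes, 5 were above 0 with the mimic and below 0 with antagomir-429, and CD24 was the exception. These comparisons share no array, and 22.0% of all expressed genes had that combination of signs. The signs of the 6 genes in the 3 comparisons were the same with each array centred on its median and with quantile normalization. Several of these ratios lay inside the like-signal scatter: AFP and DLK1 with the mimic, and AFP and SOX9 with antagomir-429.

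The log2 ratios varied with genomic span, most widely in the mimic comparison. With expressed genes in 5 equal bins by span, the mimic median was -0.19 for the shortest and 0.22 for the longest. Between the controls these medians were -0.10 and 0.06, and with antagomir-429 they were -0.02 and 0.05. EPCAM lay in the second shortest bin, whose mimic median was -0.12, and CD24 and SOX9 in the shortest. CD44 lay in the longest bin, so that its mimic ratio was 0.20 above the median of genes of like span. The part of this trend in the marker ratios was not tested.

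Likeness of pattern was measured as the Euclidean distance between log2 profiles over the 4 arrays, each centred on its mean, among 11496 genes at or above the floor on every array. The 5 genes nearest to EPCAM were PRR15L (distance 0.36), the complement receptor C3AR1 (0.42), the cyclooxygenase PTGS1 (0.45), the siderophore-binding protein LCN2 (0.45) and the ciliary dynein DNAH5 (0.49). No further gene lay within 0.5, and the median distance to EPCAM was 1.67. PRR15L had 204 with the NC mimic, 517 with the miR-429 mimic, 208 with the NC antagomir and 165 with antagomir-429. LCN2 had 216, 537, 249 and 188 on the same arrays. Like EPCAM, both were high on the miR-429 mimic array alone. Among the marker genes, SOX9 was nearest to EPCAM (0.89) and CD24 farthest. AFP and DLK1 lay 0.36 apart, and SOX9 and CD44 0.43 apart. Such distances were common for these genes: 1123 of the 11496 genes lay within 0.5 of SOX9, 1126 of CD44, 5544 of AFP and 950 of DLK1.

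The genes around EPCAM were counted in lists by their log2 ratios as measured, also where the dimmer signal lay under the floor, and their counts are to be read beside the shares of all expressed genes. Of 16 measured genes whose products bind, cleave or signal with EpCAM, all were expressed and 0 were past 2-fold in any of the 3 comparisons. With the mimic 5.25% of all expressed genes were past 2-fold higher and 3.76% lower. The shares were 3.72% and 3.53% with antagomir-429, and 3.62% and 4.7% between the controls, so 0 of 16 is near the background. The list median with the mimic was 0.03, which became -0.03 with median centring. CLDN7, a claudin that forms a complex with EpCAM, had 3365 with the NC mimic and 3471 with the miR-429 mimic (0.04). The most positive was ADAM17, the sheddase that makes the first cleavage of EpCAM, with 448 and 773 (0.79). The most negative was SPINT2, a serine protease inhibitor, with 363 and 218 (-0.74). The tetraspanin TSPAN8 had -0.64, PSEN2, a catalytic gamma-secretase subunit, had -0.65 and LEF1, a partner of beta-catenin, had 0.57. With antagomir-429 the largest were BACE1 (-0.47) and the tetraspanin CD9 (-0.41), and between the controls ADAM10 (0.81) and BACE1 (0.69).

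Other markers of liver tumour-initiating cells had 10 of 17 measured genes expressed. With the mimic 1 of the 10 was past 2-fold as measured, which is near the shares of all expressed genes (5.25% higher, 3.76% lower). It was the adhesion molecule NCAM1, with 44.1 under the floor and 96.0, and against the floor it was at least 1.81-fold higher. The list median with the mimic was 0.27 beside 0.00 for all expressed genes. Of the 10, 7 were above 0 with the mimic and 3 were below, where 49.9% of all expressed genes were above 0. ANPEP (CD13) had 1005 and 1177 (0.23), and the don't-eat-me signal CD47 had 3675 and 4253 (0.21). The adhesion molecule ICAM1 had 831 and 1269 (0.61). ABCG2 went the other way, with 88.9 and, under the floor, 46.1, so it was at least 1.68-fold lower. With antagomir-429 and between the controls 0 of the 10 were past 2-fold. Of all expressed genes 3.72% were higher and 3.53% lower with antagomir-429. Between the controls the shares were 3.62% and 4.7%, so 0 of 10 is near the background. With antagomir-429 SOX2 had 0.61 and NCAM1, whose control signal was under the floor, was higher by at least 1.46-fold. The largest between the controls were ICAM1 (-0.56) and ABCB5 (-0.39). ALDH1A1, LGR5, KIT, NANOG, SALL4, CD34 and CACNA2D1 were not expressed by the rule used, which takes the mean over the 4 arrays. Among them SALL4, an oncofetal stem cell factor, had 14.2 with the NC mimic, 81.7 with the miR-429 mimic, 26.8 with the NC antagomir and 182 with antagomir-429. It was above the floor on the treated arrays alone, higher by at least 1.55-fold for the mimic and by at least 3.43-fold for antagomir-429.

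Biliary and progenitor genes had 12 of 16 measured members expressed. With the mimic 2 of the 12 were past 2-fold and both were higher, beside 5.25% of all expressed genes higher and 3.76% lower. TEAD1, the DNA-binding partner of YAP1, had 233 with the NC mimic and 527 with the miR-429 mimic (1.18). The growth factor receptor FGFR2 had 116 and 251 (1.11). With antagomir-429 TEAD1 was also higher, with 222 and 563 (1.34), and the transcription factor PROX1 was at least 1.83-fold lower, from 96.6 to a signal under the floor. In that comparison 3.72% of all expressed genes were past 2-fold higher and 3.53% lower. TEAD1, like CD24, was thus higher on each treated array than on its own control. The list median was 0.01 with the mimic, -0.05 with median centring and 0.18 with quantile normalization. Between the controls 0 of the 12 were past 2-fold, near the background of 3.62% higher and 4.7% lower. The largest there were the YAP target CCN2 (0.86) and FGFR2 (0.54).

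Oncofetal genes and regulators of AFP had 12 of 18 measured members expressed, and with the mimic 0 were past 2-fold, near the background of 5.25% higher and 3.76% lower. The largest there were IGF2BP1, an oncofetal RNA-binding protein, at -0.75 and ZHX2, a repressor of AFP, at 0.54. The median was 0.20 with the mimic. SULF1, a heparan sulfate sulfatase, was low on the NC antagomir array alone. It was at least 1.4-fold higher with antagomir-429 (74.3) and at least 1.73-fold higher in the EpCAM-negative control (91.3) than on that array, which was under the floor at 14.0. In the genes around CD44, 12 of 14 measured were expressed and 0 were past 2-fold with the mimic or antagomir-429. Of all expressed genes 5.25% were higher and 3.76% lower with the mimic, and 3.72% and 3.53% with antagomir-429, so 0 of 12 is near the background. HMMR, a hyaluronan-binding mitotic protein, had 698 with the NC mimic, 350 with the miR-429 mimic, 287 with the NC antagomir and 213 with antagomir-429. It was lower in the EpCAM-positive control by a log2 ratio of -1.28, and with the mimic it was just short of 2-fold lower. The next largest were HAS2, a hyaluronan synthase, at 0.94 with the mimic, and CD74 (0.64) and HAS3 (-0.59) with antagomir-429.

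**Figure D4:**
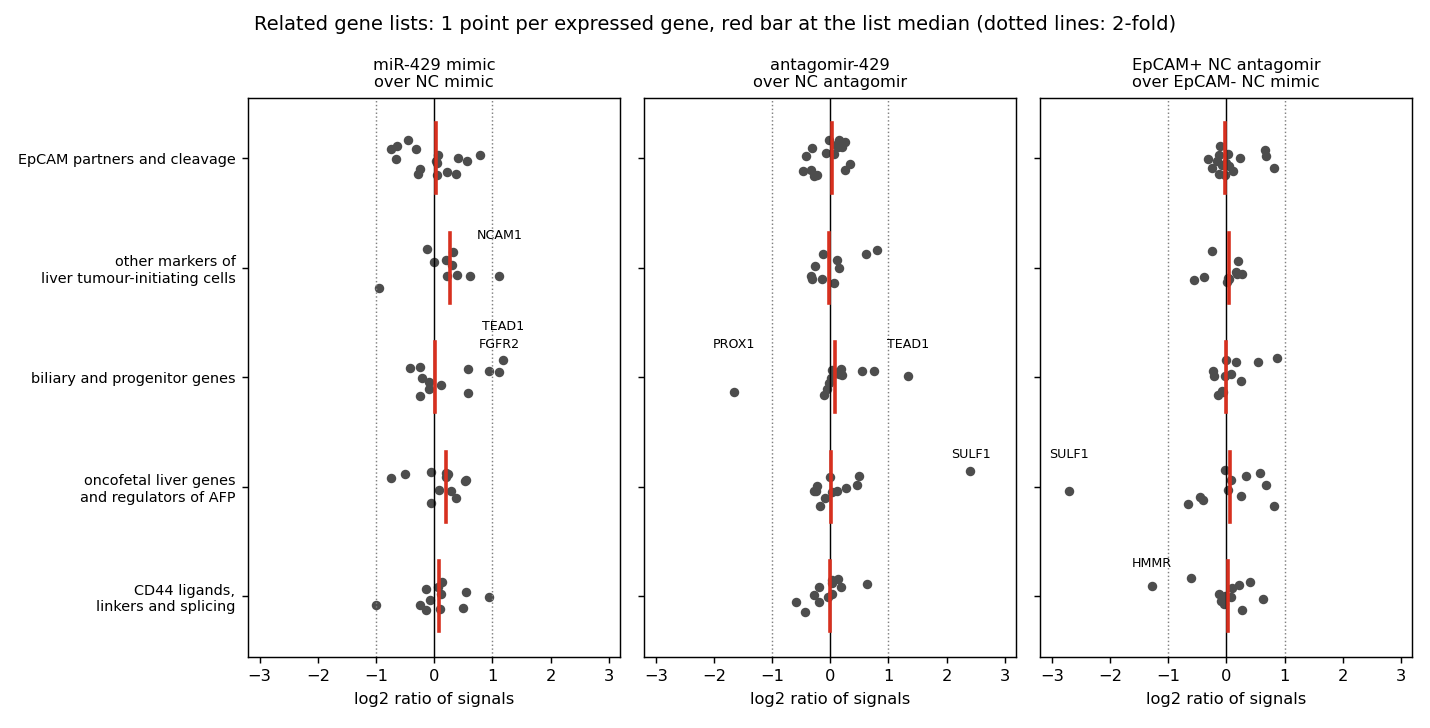
Log2 ratio of signals (horizontal axis) of the expressed genes of 5 related lists (rows), 1 point per gene, 1 panel per comparison, with a red bar at the list median, dotted lines at 2-fold and the genes past 2-fold named (height within a row has no meaning). The medians lie between -0.02 and 0.27, and the EpCAM partners hold no gene past 2-fold in any panel.

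Among the leukocyte, endothelial and stromal markers, 2 of the 9 expressed were past 2-fold with the mimic, both higher, beside 5.25% of all expressed genes higher and 3.76% lower. They were the T cell gene CD3E, with 54.8 and 136, and the endothelial VWF, at least 2.39-fold higher, with 37.3 and 126. With antagomir-429 VWF was at least 1.93-fold higher and the macrophage receptor CSF1R at least 1.67-fold lower. Between the controls 0 of the 9 were past 2-fold, near the background of 3.62% higher and 4.7% lower.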

How the data were processed

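Total RNA was labelled as biotin cRNA and hybridised to Affymetrix U133 Plus 2.0 arrays, 1 per sample, per the labels' protocols. The deposited values are log2 signals of MAS5, which the submitters' processing notes name without a version. The authors had scaled the arrays: on the linear scale every array had a 2% trimmed mean of 500.1. Detection calls were not used here. No further scaling was applied.

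In the platform annotation, whose names may be dated, a single gene symbol was given for 41097 probe sets, several for 1801 and none for 11777, and 41043 Entrez identifiers matched RefSeq (GRCh38.p14) and changed 0 symbols. The 62 Affymetrix control probe sets were left out. No probe set with several symbols was used. Ratios are differences of log2 signals between single arrays, computed with Python 3.11.15 and pandas 2.3.3. Where the dimmer array lay under the floor, the floor replaced its signal, and the fold is written as "at least".

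The named genes are the 9 markers, the members of fixed lists at or past 2-fold (up to 4 in each direction) or the 2 largest where none was, and the 5 genes nearest to EPCAM. Chosen after their values were seen were CLDN7, ANPEP, CD47, ICAM1, ABCG2, TSPAN8, SALL4, PSEN2, LEF1, HAS2, the other named genes under the floor and the identity markers. The markers and lists were chosen with earlier results of these data known. The arithmetic was tested on simulated data. Alternatives were median centring, quantile normalization, 16 signal units added before log2, the median over probe sets, no filter and a filter at the 75th percentile.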

Additional observations from a re-analysis of the deposited data

How the results depend on the processing

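The 18 EPCAM values under the 6 alternatives moved by less than the like-signal robust SD. So did 82 of 84 values of the other expressed marker genes. Many of these values could not move, because the filter settings choose genes and leave each ratio as it is. The median over probe sets also leaves a gene with 1 probe set past the floor unchanged, as for EPCAM. Only median centring, quantile normalization and the added signal units could move EPCAM. SOX9 between the controls crossed 0, from 0.00 to 0.05 with the median over probe sets. The 2 values that moved by more than the SD came from the median over probe sets. It gave CD44 -0.15 with antagomir-429 and CD24 0.52 between the controls. The counts of genes past 2-fold depended on the filter, since dim genes scatter most. Without a filter 2539 genes were higher and 2248 lower with the mimic, 2226 and 2412 with antagomir-429, and 2264 and 2539 between the controls. With the filter at the 75th percentile they were 146 and 36, 24 and 15, and 60 and 60. Without a filter 2 marker genes were past 2-fold with antagomir-429 (PROM1 and GPC3) and 2 between the controls (GPC3 and KRT19), all under the floor on average. The share of higher genes among those past 2-fold with the mimic was 58.2% as deposited, 50.9% with median centring and 51.7% with quantile normalization. No paired analysis was possible because each group had 1 array and no result comes from a test. Signals near the floor limit AFP, DLK1, PROM1, GPC3 and KRT19.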
